A study of Mus musculus with 1037 samples.

Results

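The 9 genes described here make, bind or break down retinoic acid, the signalling derivative of vitamin A, in single mouse hair follicle cells. They are the retinaldehyde dehydrogenases Aldh1a1, Aldh1a2 and Aldh1a3, the retinol and retinaldehyde enzymes Rdh10, Dhrs9 and Dhrs3, the binding proteins Crabp1 and Crabp2, and Cyp26b1. They were taken by their Ensembl identifiers from the 55335 gene rows of the count table, and each of the 9 had 1 row. All cells were labelled as hair follicle epithelial cells of wild type mouse skin, sorted by FACS from pooled animals and sequenced by Smart-seq2, a full-length method with 1 library per cell. The sorts came from AnaVI at postnatal day 15, when the hair is growing, and from CatVI at day 17 and CatVII at day 18, when the follicle regresses. At AnaVI the sorts were LOS, from the lower outer root sheath (ORS), and MOS and UOS, which share the region label upper-middle ORS. At CatVI and CatVII the cells were from the upper ORS. CatVI was spread over plates titled P17f_pl1_PhagoHFSC_alive, P17f_pl2_PhagoHFSC_alive, P17f_pl5_PhagoHFSC_apop and P17f_pl6_NonPhagoHFSC_apop (HFSC, hair follicle stem cell), called pl1, pl2, pl5 and pl6 below, and CatVII over the sorts OSalive and OSapop. The words alive and apop refer to a sort on annexin V and DAPI, which stain dying cells, and what the letter f and the words Phago and NonPhago stand for is not given in the sources used here. No group received an agent or carried a modified allele.

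Cells with 2000 or more detected genes were used, which left 463 of 1035 cells in 9 groups. LOS held 39 cells, MOS 38, pl1 19, pl2 9, pl5 15, pl6 14 and OSapop 92. UOS held 24.2% and OSalive 27% of the passing cells, and the other 2 CatVI plates held none. The animals of a stage, 3 to 6, were pooled before sorting and no cell is tied to an animal, so each group is 1 sample and no difference between groups could be tested. The total gene counts of a group ran from 1840012 on pl6 to 287377663 in OSalive, and the median per cell from 90483 to 2182588. Levels are given as CPM, the counts of a gene per 1000000 gene counts of the summed cells, and the 95% intervals are exact Poisson limits that cover counting error only. Between 19.3% and 28.7% of the counts of a group lay in annotated genes, so CPM values are low throughout. Stage, pool of animals, plate and depth cannot be told apart.

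The epithelial label held for most cells. Krt5, a keratin of basal and ORS cells, had counts in 38 of 39 LOS cells, 6 of 9 pl2 cells and 17 of 19 pl1 cells, and in every cell of the other 6 groups. Cd34, a marker of the sort gate, stood at 80.6 CPM in UOS and 111.1 CPM in OSalive. On the CatVI plates it lay between 1.46 and 9.71 CPM, with a count in 1 cell of each plate. Itga6, also used in the gate, stood at 15.1 CPM on pl5 and 16.3 CPM on pl6, with a count in 7 cells of each. In the other groups it ran from 33.9 CPM in LOS to 94.8 CPM in MOS. Fibroblast and dermal papilla markers (6 genes) summed to 1405 CPM in LOS and 353 CPM in UOS, against 4.004 to 45.9 CPM on the CatVI plates. Of the LOS cells, 9 of 39 held more than 500 CPM of fibroblast, melanocyte, immune and endothelial markers together, as did 1 MOS cell, 7 UOS cells, 1 cell each on pl1 and pl2, none on pl5 and pl6, 6 OSalive cells and 10 OSapop cells.

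Retinoic acid is made in 2 oxidations. Retinol is first turned into retinaldehyde, by enzymes such as Rdh10, and Dhrs3 runs this step backwards. Retinaldehyde is then turned irreversibly into retinoic acid by an Aldh1a enzyme. Crabp1 and Crabp2 carry the product in the cytoplasm, Cyp26 enzymes hydroxylate it for removal, and retinoic acid receptors paired with retinoid X receptors bind it at half-sites of the form AGGTCA in DNA. In skin the pathway is known for its effects on keratinocyte differentiation and on the hair cycle.

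The genes with the clearest patterns below are Dhrs9 and Aldh1a2, so the 250 bases before the start of each are shown to let their promoters be compared. They are taken from RefSeq on GRCm38.p6, strand + in both cases, at chr2:69380212-69380461 for Dhrs9 and chr9:71215539-71215788 for Aldh1a2. Capitals mark AGGTCA and TATAAA on either strand, where hits may overlap.
Dhrs9: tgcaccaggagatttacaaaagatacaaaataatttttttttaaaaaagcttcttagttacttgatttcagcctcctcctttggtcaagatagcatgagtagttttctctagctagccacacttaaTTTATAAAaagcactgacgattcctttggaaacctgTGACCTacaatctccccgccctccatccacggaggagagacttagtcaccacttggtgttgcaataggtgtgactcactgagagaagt
Aldh1a2: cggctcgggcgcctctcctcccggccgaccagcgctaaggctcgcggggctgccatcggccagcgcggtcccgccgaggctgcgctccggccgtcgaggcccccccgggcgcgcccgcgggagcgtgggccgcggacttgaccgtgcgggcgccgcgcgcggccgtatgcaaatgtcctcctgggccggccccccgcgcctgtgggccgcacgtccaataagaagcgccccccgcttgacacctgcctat
The windows differ in base composition, with 40.4% G and C for Dhrs9 and 77.6% for Aldh1a2, against a median of 52.4% over 32851 promoters. The Dhrs9 window holds AGGTCA on the minus strand, its first base 88 bases before the start, and further upstream TATAAA on both strands, in overlapping hits. The Aldh1a2 window holds neither. AGGTCA occurs in 14.02% and TATAAA in 12.4% of all windows of this length. Of the 6 members with an entry in the promoter table, Dhrs9 was the only one with AGGTCA, and Dhrs9 and Cyp26b1 had TATAAA. Paired half-sites in direct repeat with 1, 2 or 5 bases between them (DR1, DR2 and DR5), which occur in 0.164%, 0.174% and 0.0883% of windows, were in none of the member windows.

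Across the 9 groups the members made 81 values, of which 20 were 0 counts. Of the 61 values above 0, 30 drew over 50% of their counts from 1 cell and 16 drew 90% or more. Dhrs3 and Crabp2 were counted in every group, Aldh1a2, Rdh10 and Cyp26b1 in 8, Dhrs9 in 7, and Aldh1a1, Aldh1a3 and Crabp1 in 4 each. Dhrs9 was the leading member in all AnaVI sorts and on pl1, Aldh1a2 on pl5, and Dhrs3 in the other 4 groups. The 9 members together came to 88.2 CPM in UOS, 102.2 CPM in LOS, 238.5 CPM in MOS and 94.1 CPM on pl5, but only to 20.8 to 26.1 CPM in the other 5 groups.

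**Figure D1:**
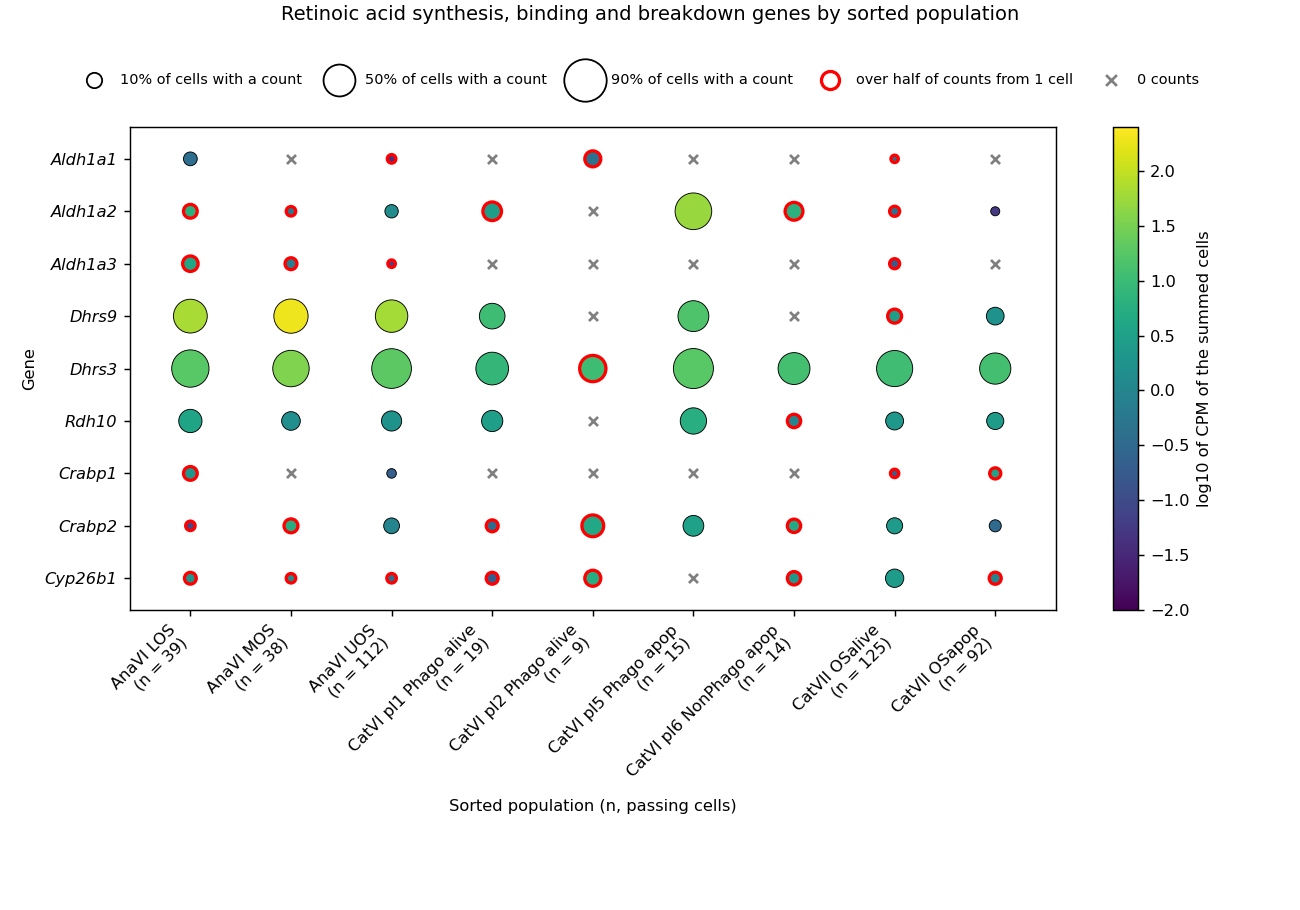
Dot plot of the 9 genes (rows) in the 9 sorted groups (columns, n is the number of cells). Colour gives log10 of the CPM of the summed cells, dot area grows with the share of cells with a count, a red rim marks values with over 50% of the counts from 1 cell, and a cross marks 0 counts. Dhrs9 and Dhrs3 fill the AnaVI columns, Aldh1a2 stands out on pl5 at 52.3 CPM, and 30 of the 61 dots have a red rim.

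Genes were also compared per kilobase of their canonical transcript, since longer transcripts collect more counts. In UOS the level per length was highest for Dhrs9, at 14.8 CPM per kb, followed by Dhrs3 at 7.24, Crabp2 at 1.08, Aldh1a2 at 0.487 and Rdh10 at 0.428 CPM per kb. On pl5 the level per length was 19.3 CPM per kb for Aldh1a2, 6.58 for Dhrs3, 3.58 for Crabp2, 3.42 for Dhrs9 and 1.44 for Rdh10. In OSalive it was 4.11 CPM per kb for Dhrs3, 2.68 for Crabp2, 0.637 for Dhrs9, 0.541 for Rdh10 and 0.482 for Cyp26b1. Cyp26b1 and the 3 Aldh1a genes lay under 0.5 CPM per kb in UOS, and so did Crabp1, at 0.253.

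Dhrs9 (ENSMUSG00000027068.6, chr2:69210776-69234877, strand +, GRCm39), a short-chain dehydrogenase that oxidizes retinol, was the member with the highest counts at AnaVI. Its level was 65.7 CPM in LOS (60.9 to 70.7), 193.8 CPM in MOS (184.6 to 203.4) and 63.6 CPM in UOS (61.7 to 65.5). It was 10.8 CPM on pl1 (8.19 to 13.9) and 14.7 CPM on pl5 (11.4 to 18.7), with 0 counts on pl2 and pl6, where 3 counts would be 1.32 and 1.63 CPM. In OSalive it was 2.74 CPM (2.55 to 2.93) and in OSapop 1.66 CPM (1.37 to 1.98). The order thus ran from MOS through LOS and UOS, which overlapped in their intervals, to pl5 and pl1, which also overlapped, and then to OSalive and OSapop.

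About the same share of cells carried Dhrs9 in the AnaVI sorts. It was counted in 22 of 39 LOS cells (56.4%, exact Clopper-Pearson 95% interval 39.6 to 72.2), 22 of 38 MOS cells (57.9%, 40.8 to 73.7) and 58 UOS cells (51.8%, 42.2 to 61.3). In the regressing follicle it was counted in 6 of 19 cells of pl1, 7 of 15 of pl5, 10 of OSalive (8%, 3.90 to 14.2) and 13 of 92 of OSapop (14.1%, 7.74 to 22.95). None of the 9 cells of pl2 and 14 of pl6 had a count, which allows shares of cells with a count of up to 33.3% and 21.4% (3 cells of each plate). With every cell thinned to 50000 counts, and shallower cells left out, the shares were 56.5% in LOS (23 cells), 56.2% in MOS (32), 46.8% in UOS, 3.23% in OSalive and 7.06% in OSapop (85). At this equal total the CatVII shares lay under those of AnaVI, while the part of the total that lay in annotated genes was 19.3% in OSalive and 21.2% in OSapop against 25.1% in UOS.

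The median level in the cells that carried Dhrs9 was also lower at CatVII. Among cells with a count the median was 167.3 CPM in LOS, 227.5 CPM in MOS and 86.4 CPM in UOS. It was 24.1 CPM on pl1, 25.6 CPM on pl5, 8.47 CPM in OSalive and 16.2 CPM in OSapop. A single count is fewer CPM in a deeper cell, and the lowest cell with a count stood at 4.27 CPM in LOS and 0.706 CPM in OSalive. The part of depth in these medians was not tested. The highest single cells were at 752, 694 and 809 CPM in LOS, MOS and UOS and at 113.5 and 77.8 CPM in OSalive and OSapop, so the single-cell levels of the stages overlap. In OSalive 1 cell held 63.5% of the counts, and without it the level was 1.01 CPM. In the other groups with counts 1 cell held 13.96% to 42.4%.

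**Figure D2:**
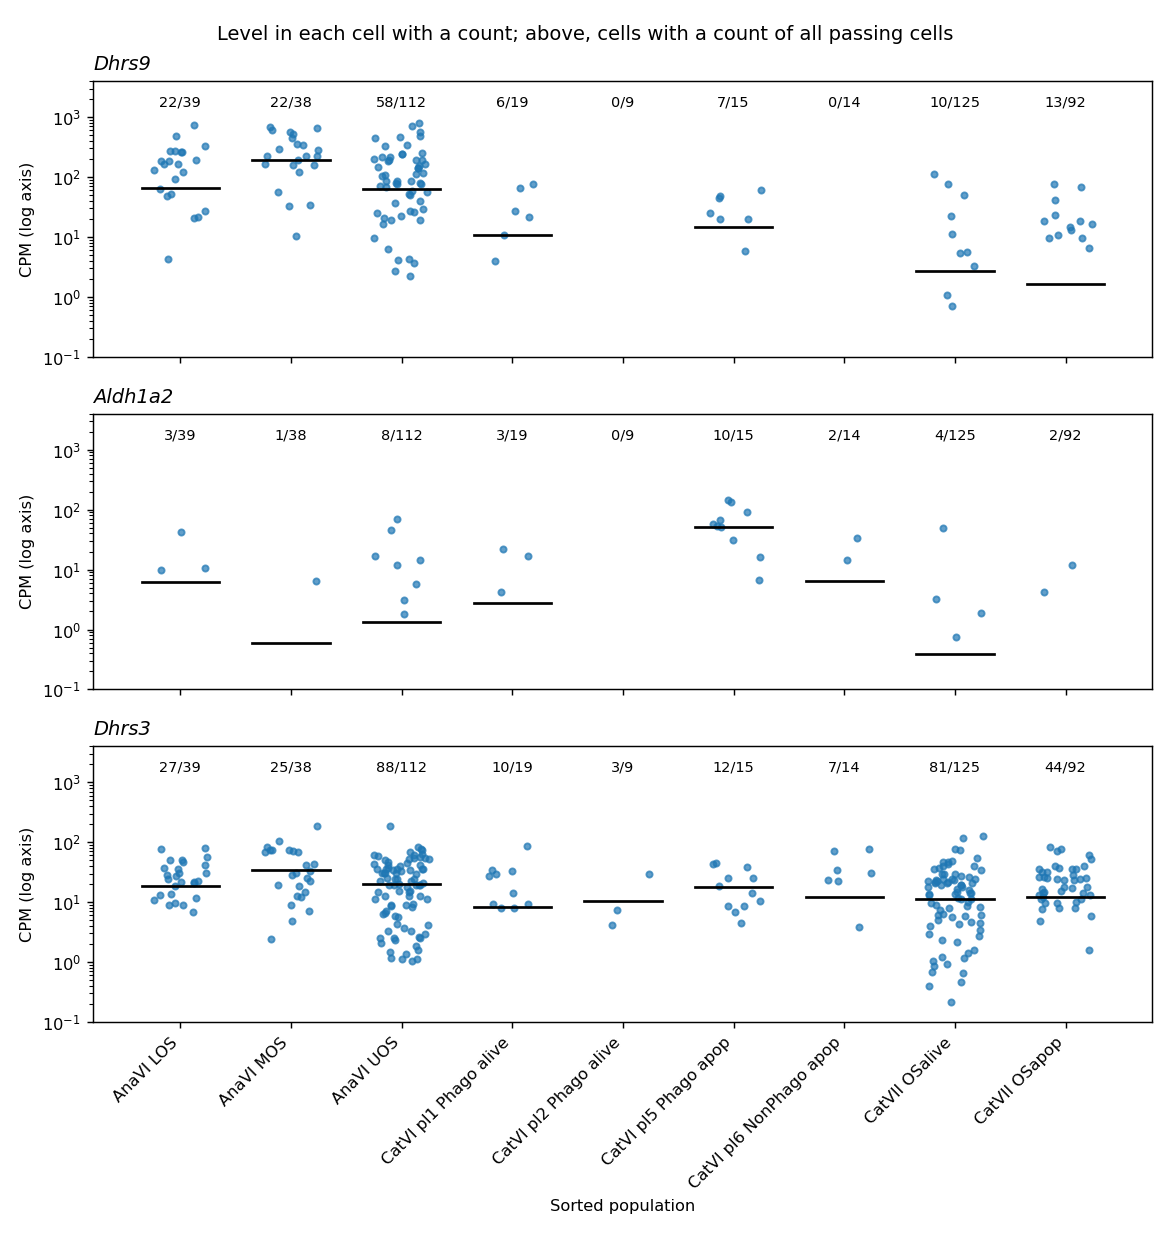
Levels of Dhrs9, Aldh1a2 and Dhrs3 in single cells by group, in CPM on a log axis. Each point is a cell with a count, the line is the CPM of all passing cells of the group, and the fraction above is cells with a count over all cells. Dhrs9 reaches 809 CPM in UOS but 113.5 CPM in OSalive, Aldh1a2 has 10 of 15 cells on pl5 and at most 8 elsewhere, and Dhrs3 has cells with a count in all 9 groups.

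Dhrs3 (ENSMUSG00000066026.14, chr4:144619245-144654779, strand +), which returns retinaldehyde to retinol and is itself a known target of retinoic acid, was the most evenly spread member, with counts in 64.1% of the 463 cells. Its level was 18.3 CPM in LOS (15.8 to 21.04), 34.99 CPM in MOS (31.1 to 39.2) and 19.8 CPM in UOS (18.8 to 20.9). It was 8.21 CPM on pl1, 10.6 CPM on pl2, 18.02 CPM on pl5 and 11.96 CPM on pl6. In OSalive it was 11.3 CPM (10.9 to 11.7) and in OSapop 11.9 CPM (11.2 to 12.8), whose intervals overlap. MOS was thus highest, pl5 overlapped LOS and UOS, and the other CatVI plates overlapped OSalive. The share of cells with a count ran from 33.3% on pl2 to 80% on pl5. A single cell gave 87.5% of the counts of pl2, and at most 45.5% elsewhere.

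Rdh10 (ENSMUSG00000025921.7, chr1:16175555-16203958, strand +), the main retinol dehydrogenase of the embryo, was low in every group. It lay at 3.73 CPM in LOS (2.67 to 5.08), 1.52 CPM in MOS (0.810 to 2.60) and 1.73 CPM in UOS (1.43 to 2.07). On the CatVI plates it lay at 2.92 CPM on pl1, 0 counts on pl2, 5.78 CPM on pl5 (3.78 to 8.47) and 1.09 CPM on pl6. In OSalive it lay at 2.18 CPM (2.01 to 2.36) and in OSapop at 2.63 CPM (2.27 to 3.03). The intervals of MOS, UOS, pl1 and pl6 overlap each other and those of OSalive. Counts were found in 77 cells in all, at most 33.3% of a group.

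Aldh1a2 (ENSMUSG00000013584.5, chr9:71122630-71203527, strand +), the enzyme that makes most retinoic acid in the embryo, had its highest level on pl5, the plate of CatVI cells titled PhagoHFSC_apop. There it stood at 52.3 CPM (45.8 to 59.4), with counts in 10 of 15 cells (66.7%, 38.4 to 88.2). The cells with a count held 60, 37, 36, 25, 23, 23, 14, 10, 5 and 2 counts, which is 6.68 to 145.6 CPM with a median of 55.7 CPM. The cell with the most counts gave 25.5% of them, and without it the level was 43.3 CPM. The next highest share was on pl1, with 3 of 19 cells (15.8%, 3.38 to 39.6).

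In the other groups Aldh1a2 came from few cells. It was 6.16 CPM in LOS (66 counts in 3 cells, 93.9% from 1), 0.585 CPM in MOS (5 counts in 1 cell) and 1.32 CPM in UOS (90 counts in 8 cells, 48.9% from 1). On pl1 it was 2.74 CPM (15 counts in 3 cells) and on pl6 6.52 CPM (12 counts in 2 cells), and pl2 had none. In OSalive it was 0.383 CPM (110 counts in 4 cells, 90.9% from 1) and in OSapop 0.0548 CPM (4 counts in 2 cells). LOS and pl6 overlap in their intervals, as do pl6 and pl1, and none of them overlaps pl5. The CatVI plates without pl5 stood together at 2.82 CPM (1.86 to 4.10), with a count in 5 of 42 cells.

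A comparison of pl5 with pl1, pl2 and pl6 was chosen after these values had been seen and is a description. Relative to the median of the 5704 genes with at least 100 counts, Aldh1a2 was 20.7-fold higher on pl5 (log2 ratio 4.37, 3.80 to 5.01). Only 2 of the 5704 genes, Aldh1a2 included, had a ratio as high, while 13% of genes were higher by 2-fold or more. Aldh1a2 was picked for its level on pl5 and reached the minimum of 100 counts only through that plate. Its ratio and rank thus restate the values it was picked on and cannot serve as a separate check. Dhrs9 and Dhrs3 were higher on pl5 too, by 2.66-fold and 2.12-fold. The median cell of pl5 had 299387 counts, against 253004 on pl1, 242928 on pl2, 90483 on pl6 and 2182588 in OSalive. With 50000 counts per cell, 8 of the 15 cells of pl5 still had Aldh1a2, against 1 of 18 on pl1, 0 of 8 on pl2, 2 of 12 on pl6, 4 cells in UOS (3.60%) and 1 in OSalive (0.806%).

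The Aldh1a2 cells of pl5 carried epithelial markers. All 10 had Krt5 and Krt14, and the summed ORS and basal markers had a median of 6718 CPM in them and 3162 CPM in the 5 cells without Aldh1a2. None of the 10 had a count of any fibroblast, immune or endothelial marker (6, 6 and 4 genes). Of the 10, 5 had a count of a melanocyte marker, as had 2 of the 5 cells without Aldh1a2. The summed melanocyte markers had a median of 1.06 CPM in the 10. The cells with Aldh1a2 were deeper, at a median of 319094 counts against 144456. Of the 10, 8 also had Dhrs3, 5 had Dhrs9, 4 had Rdh10 and 3 had Crabp2. The highest Aldh1a2 cell of each other group with 10 or more counts (LOS, UOS, pl1, pl6 and OSalive) held 2599 to 5152 CPM of ORS and basal markers and at most 10.96 CPM of fibroblast markers.

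Aldh1a1 (ENSMUSG00000053279.8, chr19:20469539-20622825, strand +) and Aldh1a3 (ENSMUSG00000015134.15, chr7:66040638-66077850, strand -), which do the same step in other tissues, were rare. Aldh1a1 had 4 counts in LOS, 3 in UOS, and 1 on pl2, and in OSalive all its counts (0.372 CPM) lay in 1 cell, at 30.1 CPM. The other 5 groups had none. Its neighbour Aldh1a7 is a close copy, so reads could be split between them, but it had only 12 counts over the 9 groups.

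Aldh1a3 had 42 counts in LOS (3.92 CPM, 4 cells), 6 in MOS, 5 in UOS and 53 in OSalive, with none on the CatVI plates and in OSapop. Its counts lay in few cells, and 24 of the 42 in LOS came from a cell that held 42372 CPM of fibroblast and dermal papilla markers and 38.7 CPM of ORS and basal markers. Of the 53 in OSalive, 49 came from a cell with 12285 CPM of the fibroblast markers and 3026 CPM of the ORS and basal markers. The highest Aldh1a3 cells of LOS and OSalive were thus also rich in fibroblast RNA, unlike those of Aldh1a2. Those of MOS (4 counts) and UOS (5 counts) were not. They held 0 and 21.5 CPM of fibroblast markers and 4820 and 4077 CPM of ORS and basal markers.

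Crabp1 (ENSMUSG00000032291.8, chr9:54671171-54680403, strand +), a binding protein also known from the dermal papilla, was counted in 12 cells. It had 21 counts in LOS (1.96 CPM, 3 cells), 14 in UOS (0.205 CPM, 3 cells), 55 in OSalive (0.191 CPM, 2 cells) and 3.44 CPM in OSapop (4 cells). In OSapop 1 cell gave 86.9% of them and the level without it was 0.460 CPM. The same cell held 2658 CPM of ORS and basal markers and 110.1 CPM of fibroblast markers. Crabp1 was at 0 in MOS and on all 4 CatVI plates.

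Crabp2 (ENSMUSG00000004885.5, chr3:87855973-87860683, strand +), which hands retinoic acid to its nuclear receptors, was counted in 42 cells. It had 1 count in LOS, 5.62 CPM in MOS (4.14 to 7.45, 3 cells) and 1.01 CPM in UOS (0.786 to 1.28, 12 cells). On the CatVI plates it had 0.365 CPM on pl1, 4.42 CPM on pl2, 3.34 CPM on pl5 and 4.35 CPM on pl6, from 1, 2, 3 and 1 cells. In OSalive it had 2.49 CPM (2.31 to 2.68, 14 cells) and in OSapop 0.315 CPM (0.200 to 0.472, 5 cells). The share of cells with a count was alike in UOS (10.7%, 5.66 to 17.97) and OSalive (11.2%, 6.26 to 18.1). With 50000 counts per cell it was 4.50% in UOS (5 cells) and 2.42% in OSalive (3 cells).

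Cyp26b1 (ENSMUSG00000063415.12, chr6:84548396-84570890, strand -), which breaks retinoic acid down, had its most cells in OSalive. There it had 2.59 CPM (2.41 to 2.78), from 19 cells (15.2%, 9.41 to 22.7), with 36.7% of the counts from 1 cell. In OSapop it had 1.01 CPM (0.795 to 1.27), from 5 of 92 cells, with 62.2% from 1 cell. At AnaVI it had 1.96 CPM in LOS (2 cells), 1.29 CPM in MOS (1 cell) and 0.380 CPM in UOS (3 cells, 2.68%, 0.556 to 7.63). On the CatVI plates it was counted in 1 cell each of pl1, pl2 and pl6 and in none on pl5. With 50000 counts per cell, Cyp26b1 was found in 7 OSalive cells (5.65%, 2.30 to 11.3) and 2 UOS cells (1.802%, 0.219 to 6.36), so that at this equal total the intervals of the shares overlapped.

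The groups were then set against each other. Each ratio is the log2 of the CPM of the first group over the second, minus the median over all genes with at least 100 counts in the pair, so that 0 is the median gene. The interval is the exact binomial one of the counts, and a gene is called past 2-fold when it lies 1 or more from 0. With 1 sample per group these calls have no replicate check and carry no p. The minimum of 100 counts is over both groups, so a gene can reach it through the group where it is higher alone. Besides members named below, this held for Crabp2 in LOS over UOS and MOS and for Aldh1a2 in the CatVI plates over UOS. The medians taken off were 0.31 for UOS over MOS, 0.05 for LOS over UOS and MOS, -0.32 for OSalive over UOS, -0.18 for the CatVI plates over UOS and 0.12 for OSapop over OSalive. The comparisons with UOS share its cells.

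Between UOS and MOS, which have the same region label, 3 of the 4 members with enough counts were lower in UOS and none was higher, while 11.3% of the 11114 genes were lower and 16.8% higher by 2-fold or more. Dhrs9 was lower in UOS by 3.77-fold relative to the median gene (log2 ratio -1.91, -1.995 to -1.83), with a log2 ratio of -1.18 as the mean of each cell's CPM and of -1.13 with 50000 counts per cell. Dhrs3 was lower by 2.18-fold (-1.12, -1.31 to -0.94), but was not past 2-fold under the 3 other scalings (-0.98 to -0.82), as the mean of each cell's CPM (-0.60) or with 50000 counts per cell (-0.51). Crabp2 was lower by 6.88-fold (-2.78, -3.33 to -2.22), on 3 cells in MOS, and its log2 ratio was -1.43 as the mean of each cell's CPM. Rdh10 was within 2-fold (-0.12, -0.95 to 0.83), and its sign turned under the 3 other scalings (0.02 to 0.18), as the mean of each cell's CPM (0.10) and without its highest cells (0.52). Without the highest cell of each gene in each group Dhrs9 kept its call (-1.66), Dhrs3 lost it (-0.87) and Crabp2 had too few counts. MOS had less bulge marker RNA than UOS (1148 against 2062 CPM over 8 genes), and its part in these differences was not tested.

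Between LOS and the other AnaVI sorts, 2 of 5 members were higher in LOS and 1 was lower, against 13.2% and 15% of 11659 genes. Aldh1a2 was higher in LOS by 4.81-fold (2.27, 1.79 to 2.74), with 62 of its 66 LOS counts in 1 cell, without which too few counts were left. As the mean of each cell's CPM its log2 ratio was 0.36. Rdh10 was higher by 2.12-fold (1.08, 0.53 to 1.602), a call that was lost under median-of-ratios and TMM scaling (0.85 and 0.83) and without its highest cells (0.49), and its log2 ratio was 1.82 as the mean of each cell's CPM. Crabp2 was lower (-4.08, -9.39 to -1.57), on 1 count in LOS, and by that mean its log2 ratio was -1.69. Dhrs9 (-0.30, -0.41 to -0.19) and Dhrs3 (-0.29, -0.51 to -0.07) were within 2-fold, and with 50000 counts per cell the sign of Dhrs9 turned (0.25). The 9 LOS cells rich in non-epithelial markers were also left out, with such cells of every group. The log2 ratios were then 2.55 for Aldh1a2, 1.35 for Rdh10 and -2.34 for Crabp2.

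Between CatVII OSalive and AnaVI UOS, 3 of 7 members were higher at CatVII and 2 were lower, against 15.9% and 19.5% of 14159 genes. Dhrs9 was lower at CatVII by 18.6-fold (-4.22, -4.33 to -4.11), and by more without its highest cells (-5.45) and against MOS (-6.13). Its log2 ratio was smaller in size with 50000 counts per cell (-3.76) and under median-of-ratios (-4.08) and TMM scaling (-4.10). It was larger in size with total-count CPM (-4.54) and as the mean of each cell's CPM (-4.72). Cyp26b1 was higher by 8.52-fold (3.09, 2.53 to 3.72), with counts in 3 UOS cells. Its log2 ratio was 1.51 as the mean of each cell's CPM, 1.03 against MOS, 3.55 without its highest cells and 5.64 without the cells rich in non-epithelial markers. Crabp2 was higher by 3.09-fold (1.63, 1.27 to 2.01), but against MOS as the AnaVI reference it was lower (-1.16), and against UOS and MOS together its log2 ratio was 1.03. Aldh1a2 was lower (-1.46, -1.87 to -1.04) and Aldh1a1 higher (3.41, 1.82 to 5.71), each with over 90% of the OSalive counts in 1 cell, and neither had enough counts left without it. Against MOS their log2 ratios were -0.59 and 0.10, within 2-fold, and that of Aldh1a1 was 4.49 as the mean of each cell's CPM. Dhrs3 (-0.49, -0.59 to -0.40) and Rdh10 (0.66, 0.37 to 0.96) were within 2-fold. Against MOS, however, Dhrs3 was lower at CatVII and past 2-fold (-1.62), while Rdh10 stayed within it (0.54).

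Transcript length moved with this ratio. Genes within 20% of the length of Crabp2 had a median log2 ratio of -0.58 in OSalive over UOS and those of the length of Crabp1 one of -0.67, while genes as long as Dhrs9, Dhrs3, Rdh10, Cyp26b1 or an Aldh1a gene had medians between 0.01 and 0.12. In the CatVI plates over UOS the medians were -0.88 at the length of Crabp2 and -0.90 at that of Crabp1. At the lengths of the other members they lay between -0.14 and 0.23. The part of length in the members' ratios was not tested.

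Between the CatVI plates together and AnaVI UOS, 3 of 5 members were higher at CatVI and 1 was lower, against 16.7% and 20.8% of 11497 genes. Aldh1a2 was higher by 16.02-fold (4.002, 3.65 to 4.36) and its log2 ratio was 1.30 without pl5, 4.77 without pl1, 4.62 without its highest cells, 3.17 as the mean of each cell's CPM and 4.89 against MOS. Dhrs9 was lower by 6.32-fold (-2.66, -2.93 to -2.40), and its log2 ratio was between -3.16 and -2.38 without each plate in turn, -3.28 as the mean of each cell's CPM, -3.31 with 50000 counts per cell and -4.55 against MOS. Crabp2 was higher by 2.79-fold (1.48, 0.85 to 2.09), from 7 CatVI cells, with too few counts left when its highest cells were removed, and was within 2-fold against UOS and MOS together (0.88). Its log2 ratio was 2.25 without pl1 and 2.20 as the mean of each cell's CPM. Rdh10 was higher by 2.05-fold (1.04, 0.50 to 1.55), a call that was lost without pl5 (0.33), without its highest cells (0.83), under the 3 other scalings (0.66 to 0.86), as the mean of each cell's CPM (0.75), with genes of at least 20 counts as the base (0.97) and, barely, with cells of 1000 or more detected genes (0.9999). Dhrs3 was within 2-fold (-0.52, -0.76 to -0.29), but against MOS it was lower at CatVI and past 2-fold (-1.62). Of the plates, 12.3% to 21.6% of the cells passed the filter on detected genes, against 83.6% in UOS, and whether the cells that passed stand for the others was not tested.

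Between OSapop and OSalive of CatVII, 1 of 8 members was higher in OSapop and 4 were lower, against 8.81% and 12.8% of 13886 genes. Each member called had under 100 counts in the group where it was lower. It was tested only because of its counts in the other group, so the tally cannot be weighed against these shares. Crabp1 was higher in OSapop by 16.5-fold (4.05, 3.62 to 4.50), a ratio that rested on 1 cell and was 1.89 on the log2 scale as the mean of each cell's CPM. Crabp2 was lower by 8.595-fold (-3.10, -3.77 to -2.51) and Cyp26b1 by 2.78-fold (-1.47, -1.84 to -1.13). Both were lower without their highest cells too (-2.93 and -2.20), and the log2 ratio of Cyp26b1 was -2.63 without the cells rich in non-epithelial markers. Aldh1a2 was lower (-2.92, -4.83 to -1.53), with -1.52 as the mean of each cell's CPM and -3.70 without the cells rich in non-epithelial markers. Aldh1a1, with 0 counts in OSapop, was lower with an upper limit of -2.98 on the log2 ratio. In OSalive the counts of Aldh1a2 and Aldh1a1 came from 1 cell each by over 90%. Dhrs3 (-0.03, -0.14 to 0.08), Rdh10 (0.15, -0.09 to 0.39) and Dhrs9 (-0.84, -1.13 to -0.56) were within 2-fold. The sign of Dhrs9 rested on 1 OSalive cell, since the log2 ratio was 0.33 without the highest cells and 0.40 as the mean of each cell's CPM, and the sign of Dhrs3 turned with total-count CPM (0.09) and with genes of at least 20 counts as the base (0.01).

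**Figure D3:**
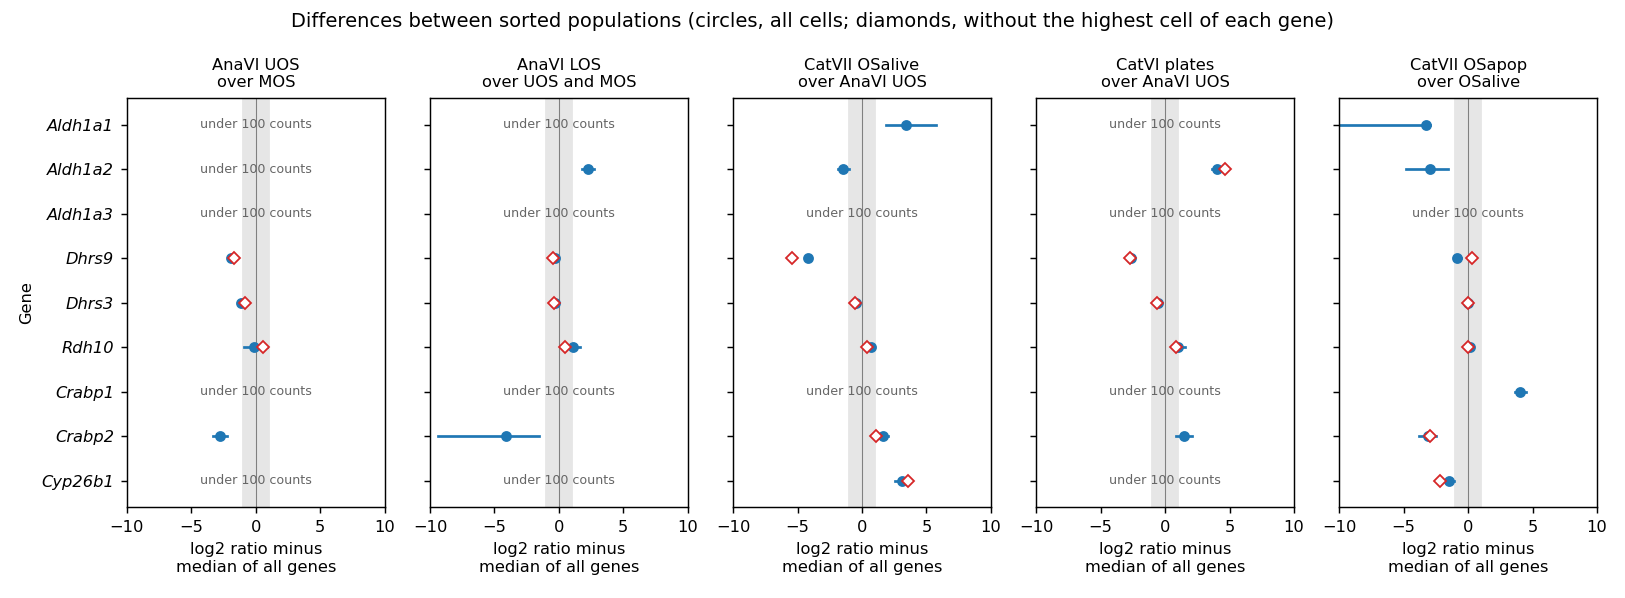
Ratios of the 9 genes in the 5 comparisons, as the log2 ratio of CPM minus the median of all genes tested. Circles are all cells with 95% counting intervals, diamonds leave out the highest cell of each gene and group where 100 counts remain, the grey band is within 2-fold, and the interval of Aldh1a1 in OSapop over OSalive has no lower limit. Dhrs9 lies at -4.22 in OSalive over UOS and -2.66 in the CatVI plates over UOS, and Aldh1a2 at 4.002 in the latter.

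Within UOS, Dhrs9 was related to markers of other parts of the follicle epithelium. Across its cells, which share 1 sort, its CPM had a Spearman rho of -0.42 with the summed bulge markers and of 0.52 with the summed companion layer and inner bulge markers (Krt75, Krt6a, Fgf18 and Timp3). The rho was 0.38 with ORS and basal markers, -0.38 with melanocyte markers and 0.04 with the gene counts of the cell. Of the bulge genes, Nfatc1 (-0.40), Krt15 (-0.38), Postn (-0.37) and Lhx2 (-0.27) had the lowest values, Sox9 (-0.11) and Cd34 (-0.03) lay nearer to 0, and Tcf7l1 (0.03) and Lgr5 (0.08) were above it. These are descriptions across cells and not tests.

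Single markers were also compared between UOS cells with and without Dhrs9. Krt15, a keratin of the bulge, had a median of 686 CPM in the 58 UOS cells with Dhrs9 and 1222 CPM in the 54 without. Nfatc1, a factor that keeps bulge cells quiescent, had counts in 19 and 33 of them, and Postn, a matrix protein, had medians of 357 and 784 CPM. Krt14 was higher in the cells with Dhrs9, at a median of 1060 against 621 CPM, and its rho with Dhrs9 was 0.41. Of the companion layer and inner bulge markers, Timp3, an inhibitor of matrix proteases, had counts in 42 of 58 cells with Dhrs9 against 17 of 54 without, and Krt6a in 38 against 24. Krt75 had counts in 10 and 10 cells and Fgf18 in 0 and 1. In MOS the summed bulge markers also had a lower median in cells with Dhrs9 (814 against 1648 CPM), whereas in LOS they had a higher one (479 against 208.5 CPM). The LOS cells with and without Dhrs9 differed in other lists too. Their medians were 3217 and 996 CPM for ORS and basal markers and 48.2 and 321 CPM for inner root sheath and hair matrix markers.

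**Figure D4:**
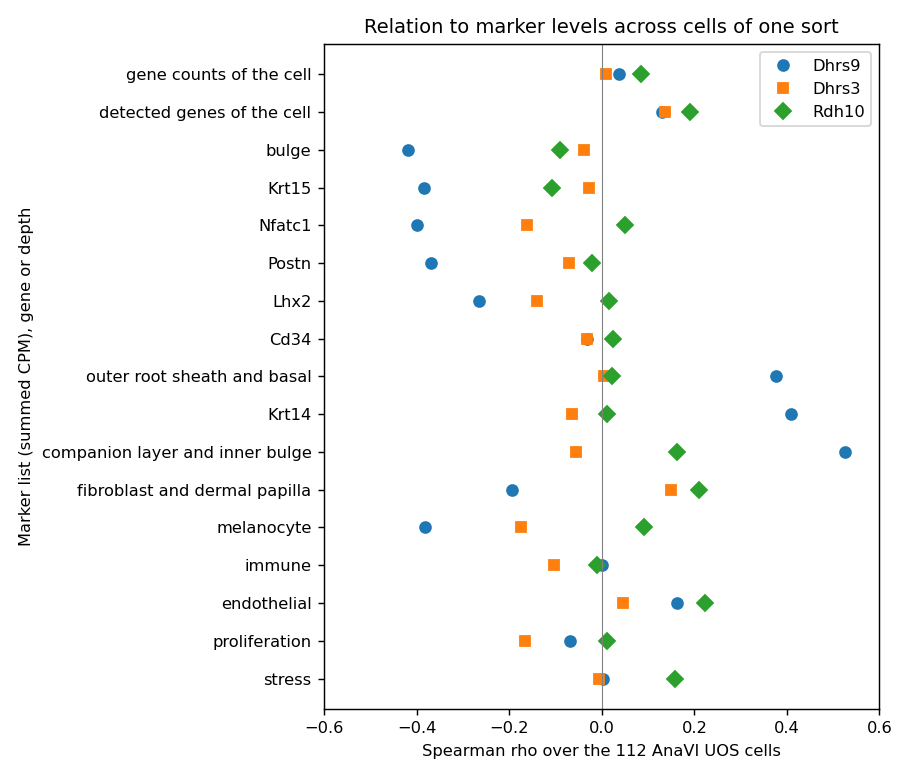
Spearman rho across the UOS cells between the CPM of Dhrs9, Dhrs3 or Rdh10 and the depth of the cell, single genes or summed marker lists. Dhrs9 lies at -0.42 with the bulge list and 0.52 with the companion layer and inner bulge list, while Dhrs3 and Rdh10 lie between -0.09 and 0.16 with these lists.

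For Dhrs3 and Rdh10 the values lay nearer to 0. In UOS the rho of Dhrs3 was -0.04 with bulge markers and -0.06 with companion layer and inner bulge markers, and in OSalive 0.05 and -0.16. The rho of Rdh10 in UOS was -0.09 and 0.16. Dhrs9 and Dhrs3 had a rho of 0.22 with each other in UOS, where 49 cells held both. Dhrs3 in OSalive had a rho of 0.29 with 6 dissociation stress genes and of -0.005 in UOS, and the other members had too few cells with a count for a value.

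For Dhrs9 and Dhrs3 the 3 genes most alike over the 9 groups were found among 8638 genes by Pearson's r of log2(CPM + 1). For Dhrs9 these were Atp6v1f (0.97), Gclm (0.97) and Il1r1 (0.96). For Dhrs3 they were Chst12 (0.94), Hsd17b4 (0.94) and Necap2 (0.90). With 9 points drawn from 8638 genes, such values are the highest of many.

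The rest of the retinoid pathway was read from 5 lists with 41 genes, of which 18 reached 5 CPM in a group and 4 had no count in any. Their counts past 2-fold stand beside shares of all genes higher and lower of 16.8% and 11.3% in UOS over MOS, 13.2% and 15% in LOS over the other AnaVI sorts, 15.9% and 19.5% in OSalive over UOS, 16.7% and 20.8% in the CatVI plates over UOS, and 8.81% and 12.8% in OSapop over OSalive. Retinoic acid receptors and retinoid X receptors (6 genes) were the steadiest list, with no member of 4 past 2-fold in any comparison except Rara, which was higher in the CatVI plates over UOS. Rarg ran from 27.8 CPM on pl5 to 109.3 CPM in OSapop and Rxra from 40.6 CPM on pl2 to 120 CPM on pl1. Rara ran from 5.78 to 26.8 CPM and Rxrb from 2.37 to 9.01 CPM. The median ratio of the 4 receptors lay between -0.43 and 0.31 of the median of all genes.

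Of the genes of retinol uptake, storage and transport (10 genes), 3 of 6 tested were higher in LOS than in the other AnaVI sorts and none was lower, with a median log2 ratio of 1.47. Stra6, the receptor that takes up retinol from its carrier, was at 39.7 CPM in 10 LOS cells, 5.56 CPM in UOS and 41.8 CPM on pl6, there from 2 cells. Lpl, a lipase, was at 26.2 CPM in LOS, with 66.5% of the counts from 1 cell, and at most 7.51 CPM elsewhere, and Rbp7, a retinol binding protein, at 12.2 CPM in LOS, from 1 cell. Dgat1, which can esterify retinol, lay between 1.16 and 5.12 CPM. In OSalive over UOS 4 of 5 were lower, Stra6 and Lrat among them, none was higher, and the median log2 ratio was -2.05. In the CatVI plates over UOS 2 of 5 were lower and none was higher, in UOS over MOS 2 of 5 were higher and 1 was lower, and in OSapop over OSalive 1 of 4 was higher and 2 were lower.

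Among 20 other retinol and retinaldehyde enzymes the calls went both ways, with 3 higher and 4 lower of 13 in OSalive over UOS, 3 higher and 4 lower of 9 in the CatVI plates over UOS, and 1 higher and 3 lower of 9 in LOS over the other AnaVI sorts. In UOS over MOS it was 2 and 2 of 8, and in OSapop over OSalive 0 and 2 of 12. Adh7, an alcohol dehydrogenase of epithelia that oxidizes retinol, was at 16.2 CPM in 62 UOS cells, 13.3 CPM in 60 OSalive cells and 11.3 CPM in 30 OSapop cells, with no count on the CatVI plates. Adh5 was at 13.5 to 18.1 CPM at AnaVI and 2.23 to 10.3 CPM later. Sdr16c5, a retinol dehydrogenase, was at 13.5 CPM in MOS and 2.36 CPM in UOS. Rdh11 and Rdh12, which reduce retinaldehyde, lay between 1.09 and 13.7 CPM and between 1.57 and 7.51 CPM. Rdh5, Rdh13, Dhrs4 and Sdr16c6 reached at most 8.39, 10.9, 7.93 and 12.4 CPM.

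Of the other binding and breakdown genes, Cyp26a1 and Cyp26c1 had no count in any group. Fabp5, a fatty acid binding protein that can also bind retinoic acid, was at 86.6 CPM in LOS, 17.9 CPM in MOS and 34.7 CPM in UOS. It was at 7.48 to 43.3 CPM on the CatVI plates and at 0.247 CPM in OSalive and 0.0274 CPM in OSapop. Fabp5 has near-identical copies in the genome, so its values are uncertain. Neither of the 2 other retinaldehyde dehydrogenases listed reached 5 CPM or the 100 counts needed for a ratio.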

How the data were processed

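Smart-seq2 libraries of single sorted cells were analysed. According to the study's methods and the labels, the authors aligned reads with STAR 2.6 to mm39, quantified them with Salmon 1.4.0 and summed them per gene in R 3.6.1. The deposited values are estimated counts, without normalization or a cell filter. Here they were rounded to whole numbers and ERCC spike-ins were kept apart. Of the gene identifiers, 93.3% were found in GENCODE vM39 (GRCm39), and 1 identifier without a symbol held 65.5% of the counts of passing cells. Cells with 2000 or more detected genes were summed per group and scaled to CPM. A group at 0 was set to 3 counts for ratios. Of the 1037 samples 1 had labels that conflict and 1 had no column, and both were left out. Wells with several cells were screened by the authors with a Gapdh qPCR, and no doublet caller was run. Within a sort 160 well labels occurred more than once, 99 of them with several passing cells, and no 2 cells had identical counts. The members and lists were chosen with earlier results of these data known. The genes named are all members, pathway genes at 5 CPM or more in a group, those past 2-fold where a list held few, and the 3 genes most alike, and some results under this rule are not reported here. Python 3.11.15, numpy 2.4.6, pandas 2.3.3, scipy 1.17.1 and, for TMM factors, edgeR 4.0.16 in R 4.3.3 were used. Ratios were tested on simulated counts. Alternatives concerned scaling, cell weights, depth, filters, the AnaVI reference, plates and the highest cell.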

Additional observations from a re-analysis of the deposited data

How the results depend on the processing

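Of the 29 member ratios, 20 were past 2-fold. Of their alternative values, all but 1 kept the direction and 180 also stayed past 2-fold. The exception was Crabp2 in CatVII OSalive over AnaVI UOS, at -1.16 with MOS as the reference. The number of members past 2-fold is given in the order UOS over MOS, LOS over UOS and MOS, OSalive over UOS, CatVI plates over UOS, and OSapop over OSalive. It was 3, 3, 5, 4 and 5 as reported. Without the highest cell of each member and group it was 1, 0, 3, 2 and 2. Some members then had under 100 counts, while Dhrs3 in UOS over MOS (-0.87) and Rdh10 in LOS over UOS and MOS (0.49) and in the CatVI plates over UOS (0.83) had enough but were within 2-fold. With 50000 counts per cell it was 1, 0, 1, 1 and 0, of 2, 2, 2, 2 and 1 members with enough counts. With at least 20 counts it was 6 in LOS over UOS and MOS, and without plate pl5 it was 2 in the CatVI plates over UOS. The other scalings, the mean of each cell's CPM and filters at 1000 or 3000 detected genes left every number within 1.5 times, as did leaving out cells over 500 CPM of non-epithelial markers, an alternative chosen after seeing the data. The other reference groups and plates did so too. Depth limits the members under 1 CPM, where 3 counts are 0.0104 CPM in OSalive but 1.63 CPM on pl6. No paired analysis was possible because each group is 1 sample and no result comes from a test.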

Other observations

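Among the 493 cells with counts and under 2000 detected genes, which are in no comparison, Dhrs9 had 72 counts in 27 cells (27.1 CPM of the cells summed) and Dhrs3 41 counts in 22 cells (15.4 CPM). Cyp26b1 had 23 counts in 4 cells, which lay on pl1, pl2 and pl6 and in OSapop. Aldh1a2 had 3 counts in 2 cells, both on pl6. Aldh1a1 and Crabp2 had none.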
